A study of Homo sapiens with 6 samples.

Results

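The open chromatin of control KMS-11 cells is described here from 3 ATAC-seq libraries, of 6 in the series. KMS-11 is an established human line of multiple myeloma, a cancer of plasma cells. The 3 control libraries came from cells that were wild type by label and were treated with LentiV2, the lentiviral vector without a guide, so the vector is part of this baseline. They are labelled as biological replicates, and nothing in the labels says whether separate transductions were made. The other 3 libraries, from cells given a guide against ATF4, were not used. Time in culture, passage and number of cells were not given in the sources used here. Listed peaks with a −log10 q of at least 10, the significance that the authors' peak caller assigned within a library, were merged over the 3 libraries. A merged region overlapped by such a peak in each library was called a core region. There were 59739 core regions among 78483 merged regions, or 76.1%.

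ATAC-seq marks DNA that the transposase Tn5 can reach, which is mostly DNA not wrapped around a nucleosome. Promoters of active and poised genes are open in many cell types, whereas enhancers between and inside genes are open in fewer of them. Plasma cells are secretory cells. IRF4 and PRDM1 are transcription factors that establish and hold the plasma cell state, and XBP1 drives the expansion of the endoplasmic reticulum. NSD2, a histone H3 lysine 36 methyltransferase, and MAF, a leucine zipper transcription factor, are genes that rearrangements with the immunoglobulin heavy chain locus activate in some myelomas, and KMS-11 is known to carry rearrangements of both. A peak list measures neither RNA nor protein, and an open start does not show that a gene is transcribed.

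The 250 bases before the start of each of these 5 genes lay wholly inside a core region, and they are printed to show how unlike the sequences of open starts can be. They are written 5′ to 3′ on the strand of the gene, from RefSeq on GRCh38.p14. IRF4 lies at chr6:391502-391751 (plus strand), PRDM1 at chr6:106086086-106086335 (plus strand), XBP1 at chr22:28800570-28800819 (minus strand), NSD2 at chr4:1871143-1871392 (plus strand) and MAF at chr16:79600738-79600987 (minus strand). For PRDM1 and XBP1, which have several listed starts, the first listed was taken. Capitals mark exact matches, on either strand, to any of 15 short motifs described further on.
IRF4: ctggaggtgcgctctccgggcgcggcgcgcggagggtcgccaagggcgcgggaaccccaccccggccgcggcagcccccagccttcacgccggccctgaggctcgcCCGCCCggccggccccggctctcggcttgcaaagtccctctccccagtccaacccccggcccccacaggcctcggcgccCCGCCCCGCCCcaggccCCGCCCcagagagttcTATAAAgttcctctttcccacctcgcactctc
PRDM1: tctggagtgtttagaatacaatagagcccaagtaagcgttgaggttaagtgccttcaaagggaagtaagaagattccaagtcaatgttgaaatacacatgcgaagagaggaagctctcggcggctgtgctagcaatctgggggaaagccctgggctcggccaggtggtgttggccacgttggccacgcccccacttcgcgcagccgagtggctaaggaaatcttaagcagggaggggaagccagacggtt
XBP1: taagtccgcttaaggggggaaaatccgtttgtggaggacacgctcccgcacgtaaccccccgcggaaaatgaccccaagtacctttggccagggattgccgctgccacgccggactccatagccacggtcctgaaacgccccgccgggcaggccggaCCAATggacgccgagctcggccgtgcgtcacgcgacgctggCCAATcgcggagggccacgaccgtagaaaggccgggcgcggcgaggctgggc
NSD2: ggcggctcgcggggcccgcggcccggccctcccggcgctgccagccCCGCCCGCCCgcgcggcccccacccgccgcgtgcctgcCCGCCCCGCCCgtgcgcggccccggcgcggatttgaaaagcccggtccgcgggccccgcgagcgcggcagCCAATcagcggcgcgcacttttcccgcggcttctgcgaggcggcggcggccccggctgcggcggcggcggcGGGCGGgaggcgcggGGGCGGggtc
MAF: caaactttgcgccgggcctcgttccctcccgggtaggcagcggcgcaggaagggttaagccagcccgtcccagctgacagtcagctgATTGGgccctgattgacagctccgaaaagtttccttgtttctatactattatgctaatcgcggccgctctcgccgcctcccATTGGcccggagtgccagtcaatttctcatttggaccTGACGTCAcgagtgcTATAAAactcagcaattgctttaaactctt
The stretch of NSD2 was 86.0% G and C with 50 CpG dinucleotides, that of IRF4 76.0% with 28, and that of XBP1 67.6% with 31. MAF had 54.4% with 16 and PRDM1 53.6% with 11. IRF4 and MAF held TATAAA, beginning 32 and 30 bases before the start. IRF4 held 4 and NSD2 6 matches to GGGCGG, the box bound by SP and KLF factors, counted over both strands. XBP1 held CCAAT, the NF-Y box, at 2 places, NSD2 at 1 place, and MAF at 2 places on the other strand, with TGACGTCA, the cAMP response element, nearer to its start. No motif of the 15 was found in the stretch of PRDM1.

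A few further stretches show the extremes of the data. ZNF687, a zinc finger gene at chr1:151281272-151281521 (plus strand), lay in the core region with the highest pileup of all. METTL13, which encodes a lysine methyltransferase, at chr1:171781410-171781659 (plus strand), had the highest fold among the 12 regions with the highest pileup. FCN1, a ficolin gene of monocytes at chr9:134917913-134918162 (minus strand), had no listed peak at all within 10 kb in any of the 3 libraries. These 3 genes were chosen after their values were seen.
ZNF687: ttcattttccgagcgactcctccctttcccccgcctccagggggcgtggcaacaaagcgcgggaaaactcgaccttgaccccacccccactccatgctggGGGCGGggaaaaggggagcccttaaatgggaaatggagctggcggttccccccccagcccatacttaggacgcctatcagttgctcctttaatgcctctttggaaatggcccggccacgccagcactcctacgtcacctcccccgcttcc
METTL13: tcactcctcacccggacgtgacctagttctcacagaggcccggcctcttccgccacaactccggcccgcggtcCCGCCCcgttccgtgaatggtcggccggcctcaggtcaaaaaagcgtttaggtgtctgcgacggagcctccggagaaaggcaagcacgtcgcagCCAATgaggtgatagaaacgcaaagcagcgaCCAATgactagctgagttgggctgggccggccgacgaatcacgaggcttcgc
FCN1: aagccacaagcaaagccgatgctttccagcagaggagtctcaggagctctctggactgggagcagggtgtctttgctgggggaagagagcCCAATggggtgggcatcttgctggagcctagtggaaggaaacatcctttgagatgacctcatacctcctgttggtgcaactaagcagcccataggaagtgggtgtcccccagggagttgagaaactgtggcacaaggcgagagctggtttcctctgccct
The open starts of ZNF687 and METTL13 were 61.6% and 62.4% G and C with 14 and 25 CpG dinucleotides. The stretch of FCN1 was 56.0% G and C, yet had only 2 CpG dinucleotides.

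The 3 libraries gave 68155, 74474 and 67031 separate regions at this threshold (69887 ± 4012, SD, n = 3). Of the merged regions, 8191 were found in 2 libraries and 10553 in 1. The lists hold no read totals. The background pileup that the caller used for a whole library, recovered from the lists, was 3.19, 2.79 and 3.52 overlapping tags in libraries 1, 2 and 3, and stands in for depth. Library 2 had the lowest background and the most regions. Core regions covered 52.0 Mb and had a median width of 798 bp, with quartiles of 570 and 1111 bp and a range of 157 to 3530 bp. Their fold is the summit pileup over the local background with 1 added to each, taken at the summit where this ratio is highest. It had a median of 10.6, 12.2 and 10.04 in the 3 libraries. The mean fold over the libraries ranged from 1.90 to 38.7, and 16 regions exceeded 30. The threshold passed through a continuum. The 2243 core regions whose lowest −log10 q lay between 10 and 11 had a median fold of 6.46, and the 1589 regions that missed because the remaining library reached only 9 to 10 had 6.05.

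Most core regions lay away from gene starts. A region was put in the first class that it met: within 1 kb of a listed start of a protein-coding gene, within 1 kb of either end of a gene without a listed start, within 1 kb of another gene end, inside a gene, or between genes. Gene starts held 10806 core regions (18.1%) and ends of genes without a listed start 2333 (3.91%). Other gene ends held 1108 (1.85%), gene bodies 21742 (36.4%) and the space between genes 23750 (39.8%). Of the regions between genes, 31.2% lay over 100 kb from any such gene start or end. Merged regions that were not core were at gene starts in 3.10% and between genes in 49.9%. Of all merged regions at gene starts 94.9% were core, against 72.1% of those in gene bodies and between genes together, called distal here.

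Regions at gene starts were wider than distal ones, 1235 bp against 712 bp at the median, and held more summits (a mean of 2.79 against 1.43). A single summit was found in 62.4% of distal regions and 13.2% of those at starts, in each of the 3 libraries. The fold at starts had medians of 13.0, 13.9 and 12.5 in the 3 libraries, and that of distal regions 10.03, 11.8 and 9.50. Starts were higher within each library, by 0.33 ± 0.09 in median log2 fold (SD, n = 3, higher in 3 of 3). An exact sign permutation test over the libraries gave p = 0.25, two-sided, which is the smallest that 3 libraries allow. With the mean over a region's summits in place of the highest summit, the difference was −0.11, so the direction of the fold rests on how summits are combined. The pileup itself separated the classes far more. Divided by the background of the library, it had a median of 69.3, 79.8 and 65.3 at starts and of 20.7, 26.1 and 19.3 in distal regions, a difference of 1.70 ± 0.08 on the log2 scale (exact sign permutation p = 0.25, higher in 3 of 3). The local background, which divides the fold, was also higher at starts, at 5.23 ± 0.25 times the library background against 1.62 ± 0.06 (SD, n = 3). Fold and pileup therefore rank regions differently. Gene lists and strongest regions are ordered by fold below, with the pileup given for some of them.

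**Figure D1:**
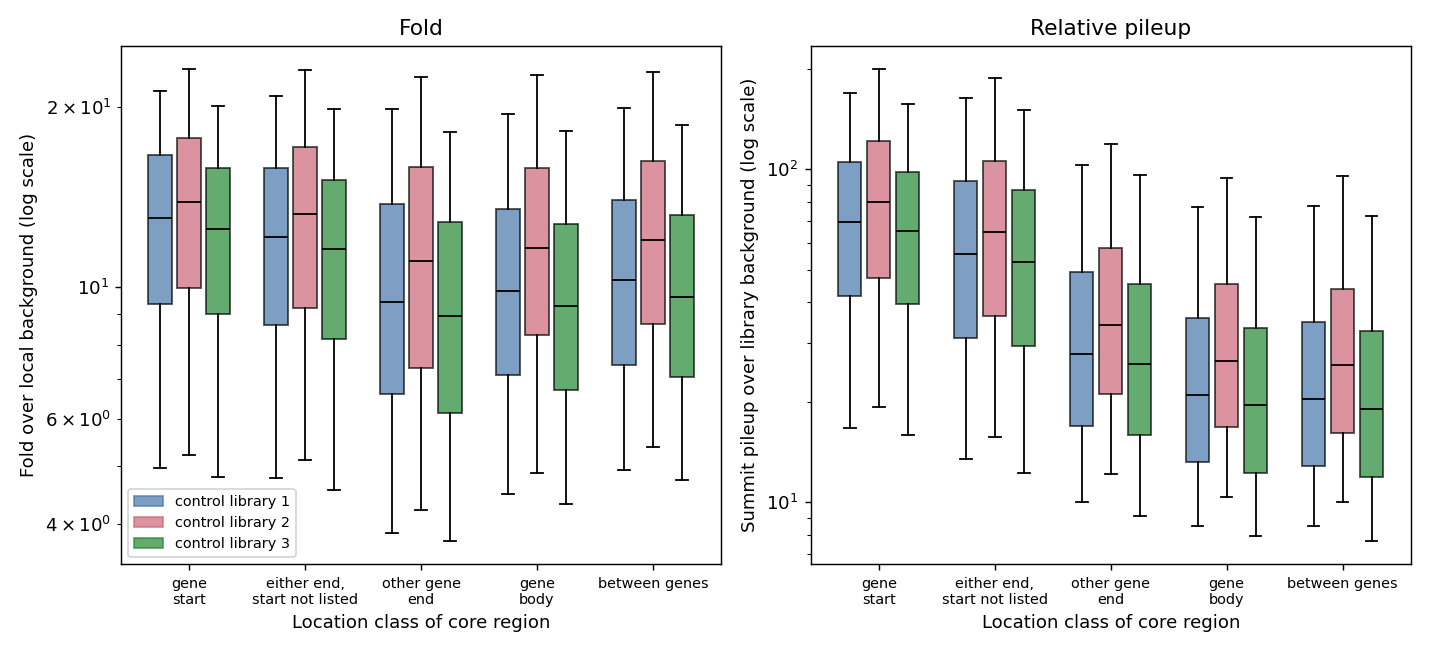
Fold over local background (left) and summit pileup over the background of the library (right) of core regions by location class, on log axes, with 1 box per control library (box, quartiles; line, median; whiskers, percentiles 5 and 95). Classes overlap widely in fold, whereas the relative pileup has medians of 65.3 to 79.8 at gene starts and 19.0 to 25.8 between genes.

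Summits stood just before the annotated starts. The highest summit of a gene-start region lay at a median of −51, −53 and −51 bp from the nearest listed start in the 3 libraries. It was upstream of the start in 75.01%, 75.5% and 75.9% of regions, and within 200 bp in 72.7%, 72.8% and 73.2%. The 3 distributions lay on each other.

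**Figure D2:**
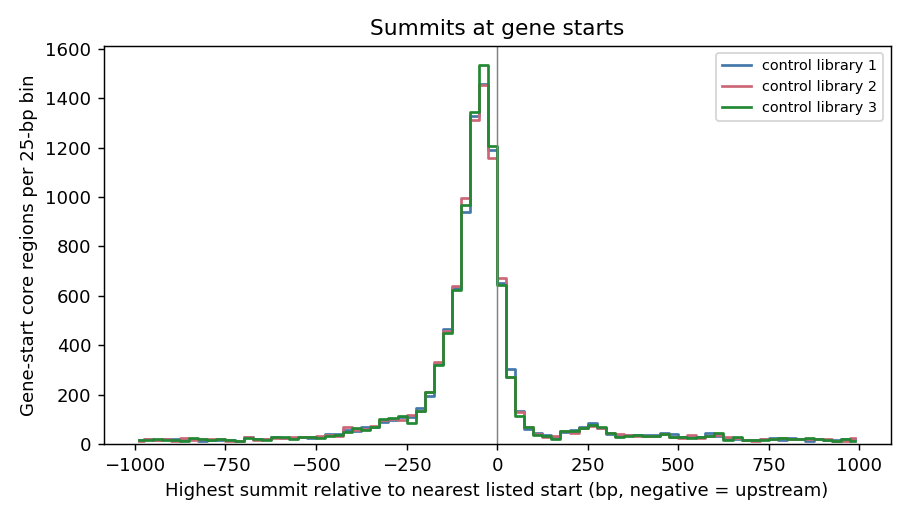
Position of the highest summit of each gene-start core region relative to the nearest listed start (bp, negative upstream), as regions per bin of 25 bp, with 1 line per control library. The lines of the 3 libraries overlap, and the peak lies just upstream of the start, with medians of −51, −53 and −51 bp.

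Of 19970 protein-coding genes, 13231 (66.3%) had a core region within 1 kb of a start, or of either end where no start was listed, and 17142 (85.8%) had a core region inside them or within 10 kb. These shares are the background for every list. The share at the start was 68.4% of the genes with a listed start and 58.2% of those without. The median gene had 2 core regions inside or within 10 kb, and 536 genes had 10 or more. The median fold at the start, over genes with a core region there, was 13.7. For a gene with several listed starts, the region of highest mean fold near any of them was taken, here and in every list. Genes with more listed starts thus have more regions to choose from. Such a start can lie well inside the annotated gene, as for the values of ZBTB20, CCND3, ASNS, IRF8, TCF7 and RBFOX3 below.

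Sequence composition, which took no part in the choice of regions, differed between open and other starts. A window of 300 bases, from 250 before to 50 after the most upstream listed start, was available for 15811 genes, and 9911 windows (62.7%) overlapped a core region. These had a median G and C content of 66.0% and 27 CpG dinucleotides, against 54.3% and 6 in the 5900 windows without a core region. Among overlapped windows, those in the lowest and the highest 25% by relative pileup had 26 and 27 CpG dinucleotides, so CpG content set open windows apart from the rest more than it ordered them among themselves. No test was made, because genes are not replicates.

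Of 15 motifs searched on both strands, some were found in a larger share of windows with a core region than of the others, and some in a smaller share. GGGCGG was found in 74.0% of windows with a core region, 31.9% of those without and 58.3% of all windows. The ETS motif CCGGAAG was found in 20.4%, 3.51% and 14.1%, the YY1 motif AAGATGGCG in 4.14%, 0.271% and 2.69%, and the NRF1 motif TGCGCATGC in 3.09%, 0.542% and 2.14%. The cAMP response element TGACGTCA was found in 3.52%, 0.949% and 2.56%. The ZNF143 motif ACTACAATT was found in 0.666%, 0.119% and 0.462%. All of these except the last hold a CpG, and the windows with a core region hold more CpG. Motifs with the opposite order were TATAAA (5.04%, 17.7% and 9.75%), the AP-1 motif TGANTCA (3.66%, 9.14% and 5.70%), the IRF motif AANNGAAA (15.2%, 25.2% and 19.0%), the octamer ATGCAAAT (1.53%, 2.03% and 1.72%) and the ATF4 motif TGATGCAA (0.444%, 1.07% and 0.677%). CCAAT was found at close shares in windows with and without a core region (37.2%, 34.9% and 36.4% of all). Among open windows it was found in 26.4% of the 25% with the lowest relative pileup and 53.0% of the 25% with the highest. The remaining motifs were CACGTG, the E-box (10.5%, 6.02% and 8.82%), GGGANTTTC for NF-kB (1.26%, 1.17% and 1.23%) and TGACGTGG for XBP1 (0.938%, 0.695% and 0.848%). The motifs of XBP1 and the cAMP response element share TGACGT, and those of ATF4 and the octamer share ATGCAA. A match is a run of letters and not a bound site.

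All 5 marker genes had a core region over a start, and their neighbourhoods differed in number, strength and width. At IRF4 the start region (chromosome 6, 391006 to 392491) was 1486 bp wide and had a fold of 5.03, 6.62 and 7.29 in libraries 1, 2 and 3. Its pileups were 169, 226 and 274, so library 1 was the lowest in both. The fold had a coefficient of variation of 22.4%, after each library was divided by its median. This fold was low among open starts, above 4.37% of the genes with a core region at the start. The local background of this region was 10.9 times that of the library, beside a median of 5.25 over gene-start regions. The relative pileup was 70.6, close to the median of 71.8 over gene-start regions. IRF4 had 3 other core regions within 10 kb, 1 upstream (381603 to 382536, fold 6.18 ± 0.34, SD, n = 3) and 2 inside the gene (397646 to 397910, 4.05 ± 0.55, and 399719 to 400387, 6.20 ± 0.40).

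PRDM1 had 11 core regions inside it or within 10 kb, more than 97.9% of genes, a count not scaled to gene length. The region at its first listed start (chromosome 6, 106085836 to 106086567) was 732 bp wide, with a fold of 11.03, 12.5 and 11.3 and pileups of 388, 431 and 426. The region with the highest fold (105992139 to 105993133) lay 93.2 kb from the nearest listed start, over the upstream boundary of the annotated gene, with 14.8, 13.1 and 12.3. A region beyond the gene (106117286 to 106118129) had 11.6, 11.7 and 9.88. The others had a mean fold of 3.18 to 5.75, and stood where the local background was 6.22 to 17.7 times the library's.

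XBP1 had 3 core regions. That at the start (chromosome 22, 28800057 to 28801057) had a fold of 10.6, 11.5 and 9.83 and pileups of 315, 339 and 335, and the fold had a coefficient of variation of 2.96% after scaling. The region beyond the other end of the gene (28791717 to 28793455) was wider, at 1739 bp with 5 summits in each library, and had a fold of 6.79, 6.998 and 6.56. The region upstream of the start (28802199 to 28802987) was weak, with 2.85, 3.55 and 2.56.

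The NSD2 start lay in a region of 2291 bp (chromosome 4, 1870101 to 1872391) with 8, 7 and 8 summits in the 3 libraries. Its fold was 3.81, 3.76 and 3.97, higher than at only 0.355% of open starts, although its pileups were 165, 159 and 203. The local background there was 14.2 times that of the library. The position of the highest summit differed by up to 703 bp between libraries. Inside the gene, a region 27.7 kb from the start (1899065 to 1899901) had a higher fold, at 6.85, 9.57 and 9.84, on a local background of 2.87 times that of the library. The pileups there, 64, 92 and 107, were lower than at the start.

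MAF had 10 core regions inside the annotated gene or within 10 kb, more than 97.3% of genes, a count not scaled to gene length. Its start region (chromosome 16, 79599556 to 79601685) was 2130 bp wide with 7, 6 and 6 summits, a fold of 7.35, 7.31 and 7.85 and pileups of 293, 294 and 359. The strongest regions by fold lay far inside the annotated gene, which spans 79202622 to 79600737. A region 80.5 kb from the start (79519302 to 79520236) had 19.99, 21.1 and 16.8, and another 237 kb away (79362254 to 79363318) had 15.7, 23.2 and 17.6. Pileups there were 135, 153 and 139 and 122, 168 and 158, lower than at the start, on a local background 2.05 and 2.22 times the library's, against 13.0 at the start. Whether a region lies on a rearranged copy cannot be read from a peak list.

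**Figure D3:**
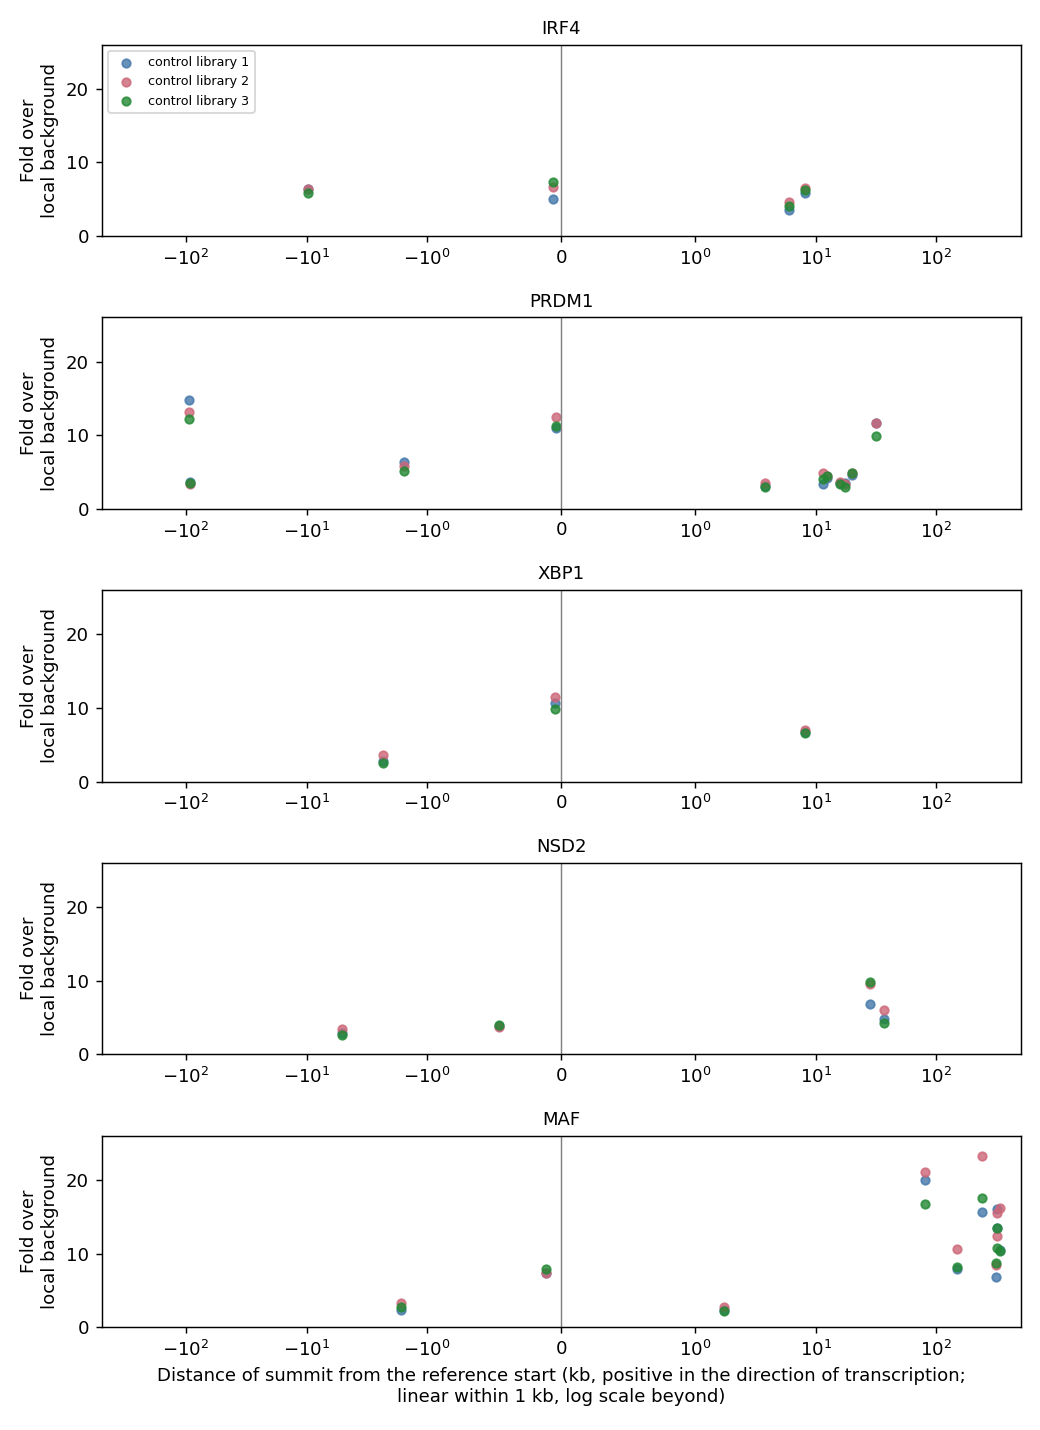
Fold over local background of every core region inside or within 10 kb of the 5 marker genes, against the distance of its summit from the reference start in kb (positive in the direction of transcription; linear within 1 kb and logarithmic beyond), with 1 point per control library. The start regions of XBP1 and PRDM1 lie near 11, that of NSD2 below 4, and MAF has its highest values, up to 23.2, far inside the gene.

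The listed starts of plasma cell genes were open almost throughout. The lists were chosen with earlier results of these data known, so the counts describe the libraries and support nothing further. Members without a listed start were judged by either annotated end, so a region counted for them may lie at the end of the gene rather than at its start, and they are counted apart. Of 10 plasma cell transcription factors, 8 of the 8 with a listed start had a core region there, beside 68.4% of all genes with a listed start. Their median fold was 8.84, below the 13.8 of all genes with a core region at a listed start. An end of the other 2 factors was open as well. The highest were ZBTB20, a zinc finger repressor (17.5, 24.6 and 19.3), and CREB3L2, a membrane-bound stress factor (13.9, 15.1 and 12.7), followed by PRDM1 and XBP1. The region of ZBTB20 (chromosome 3, 114899292 to 114900072) lies at a listed start inside the annotated gene, far from both of its ends. By relative pileup the order turned, with 41.98 at ZBTB20 and 225 at CREB3L2. All 15 secretory pathway genes with a listed start had a core region there, with a median fold of 13.2, as had an end of 1 more gene. CRELD2, an endoplasmic reticulum foldase cofactor, had 19.5, 20.6 and 17.0, and SEC61A1, the channel for nascent proteins, had 19.5, 18.1 and 16.4. SEL1L, of the degradation machinery, had 16.7, 18.6 and 16.5, and HSPA5, the chaperone BiP, had 15.9, 17.8 and 15.2. MZB1, a plasma cell chaperone component, had the lowest in the list at 3.64, 4.04 and 4.12.

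Of 9 plasma cell surface genes with a listed start, 8 had a core region there, with a median fold of 9.03, and the exception was CD27. Ends of the 3 others were open, and all 12 had a core region within 10 kb. CD28, a costimulatory receptor, had 14.9, 16.8 and 14.1, CD38, an ectoenzyme, 11.6, 11.2 and 11.01, and SDC1, the syndecan CD138, 9.45, 10.2 and 8.70. FCRL5, an Fc receptor-like protein, had 8.27, 12.5 and 7.87, where library 2 stood above the others. In the myeloma translocation list, 8 of 8 genes with a listed start had a core region there, with a median fold of 8.41, and an end was open in the 4 others. The highest of those named here were the cyclin gene CCND3 (17.6, 18.7 and 15.7), WWOX, an oxidoreductase gene next to MAF (17.2, 19.1 and 15.1), and TACC3, a spindle gene near FGFR3 (12.5, 13.9 and 11.5). FGFR3, the receptor gene next to NSD2, had 5.78, 5.91 and 5.74.

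All 11 genes of the NF-kB list and all 18 of the ATF4 list that have a listed start had a core region there. Of those without one, an end was open in 2 of 3 and 1 of 2. REL, a subunit of the NF-kB complex, had 20.2, 20.9 and 18.8 at its start. RELB, a subunit of the noncanonical pathway, had 19.9, 22.7 and 18.8 at the end of higher coordinate (chromosome 19, 45038685 to 45039736), and its start is not listed. The same region lies at an end of the neighbouring gene CLASRP. CYLD, a deubiquitinase that restrains the pathway, had 16.9, 19.96 and 17.0, and BIRC3, a ubiquitin ligase, had 14.8, 13.7 and 11.4. CD40, a receptor of B cells without a listed start, had no core region at either end. In the ATF4 list, EIF2AK4, the sensor kinase of uncharged tRNA, had the highest fold at 21.6, 23.3 and 20.8, with a relative pileup of 69.2, whereas EIF2AK3, the endoplasmic reticulum kinase PERK, chosen after its value was seen, had a relative pileup of 192. SESN2, which restrains mTORC1, had 15.1, 18.5 and 17.7, ASNS, asparagine synthetase, 17.4, 15.3 and 16.1, and SLC7A11, the cystine transporter, 14.5, 16.3 and 15.2 at an end, as its start is not listed. NUPR1, a small stress protein, had no core region within 10 kb. All 13 housekeeping genes with a listed start had a core region there, with a median fold of 12.3, and an end was open in the 3 others.

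Counts at the start for genes of other cell types lay below the share of all genes, in some lists only slightly. Those within 10 kb mostly did not. At a start, or at either end where none was listed, they were 10 of 19 for B cells, 10 of 19 for T and NK cells, 4 of 15 for myeloid cells, 3 of 12 for erythroid cells and megakaryocytes, 6 of 16 for epithelial and stromal cells and 7 of 12 for neurons, beside 66.3% of all genes. Over listed starts alone they were 7 of 11, 7 of 13, 3 of 12, 0 of 6, 1 of 3 and 4 of 6, beside 68.4%. With a −log10 q of at least 20, the myeloid count was 2 of 15. Within 10 kb the shares were 94.7% for B cells, 89.5% for T and NK cells, 86.7% for myeloid cells, 93.8% for epithelial and stromal cells and 100% for neurons, all above the 85.8% of all genes, and 83.3% for erythroid cells and megakaryocytes, below it. The lists are short, and several shares lie close to that of all genes. Examples are 7 of 11 and 4 of 6 at listed starts, and 13 of 15 and 10 of 12 within 10 kb. No direction is read from these.

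Some listed starts of these genes had a high fold. The B cell factor IRF8 had 19.8, 21.6 and 18.6, the adaptor BLNK 19.3, 21.5 and 17.1, and CR2, the complement receptor, 16.4, 16.0 and 16.4. TCF7, a T cell factor, had 16.8, 17.5 and 16.6, and TBX21, a T-box factor, 13.4, 14.1 and 13.6. The myeloid factor CEBPA had 15.6, 17.4 and 13.8, and POU3F2, a neural factor, 11.8, 11.9 and 11.5. The other named members with a listed start were VCAN and S100A8 of myeloid cells (mean fold 8.92 and 6.51) and SYT1 and RBFOX3 of neurons (11.3 and 8.17). The remaining members of highest fold have no listed start, and their values are those of a region near either end. CD3E, a T cell receptor subunit, had 18.1, 20.1 and 18.3, and EPCAM, an epithelial adhesion gene, 18.4, 21.1 and 16.3, each at the end of higher coordinate. GP1BA, a platelet glycoprotein gene, had 12.3, 14.9 and 11.9, and NFE2, a factor of the erythroid and megakaryocyte lineages, 10.8, 12.5 and 8.97. Means were 17.2 at ESRP1, an epithelial splicing factor, 11.8 and 11.5 at the collagen genes COL1A1 and COL1A2, 11.6 at BLK of B cells, 8.58 at MPO of myeloid cells and 11.1 at SNAP25 of neurons.

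Genes with no core region within 10 kb included PRF1 and ZAP70 of T and NK cells, CD33 and FCN1 of myeloid cells, TAL1 and PF4 of the erythroid and megakaryocyte list, and DCN, a stromal proteoglycan. No peak was listed near CD33 or FCN1 in any of the 3 libraries. At ZAP70, summits reached a −log10 q of 14.4, 14.0 and 25.9, and no core region was formed. At DCN, library 2 alone reached 20.1, where the others had 5.31 and 2.83.

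**Figure D4:**
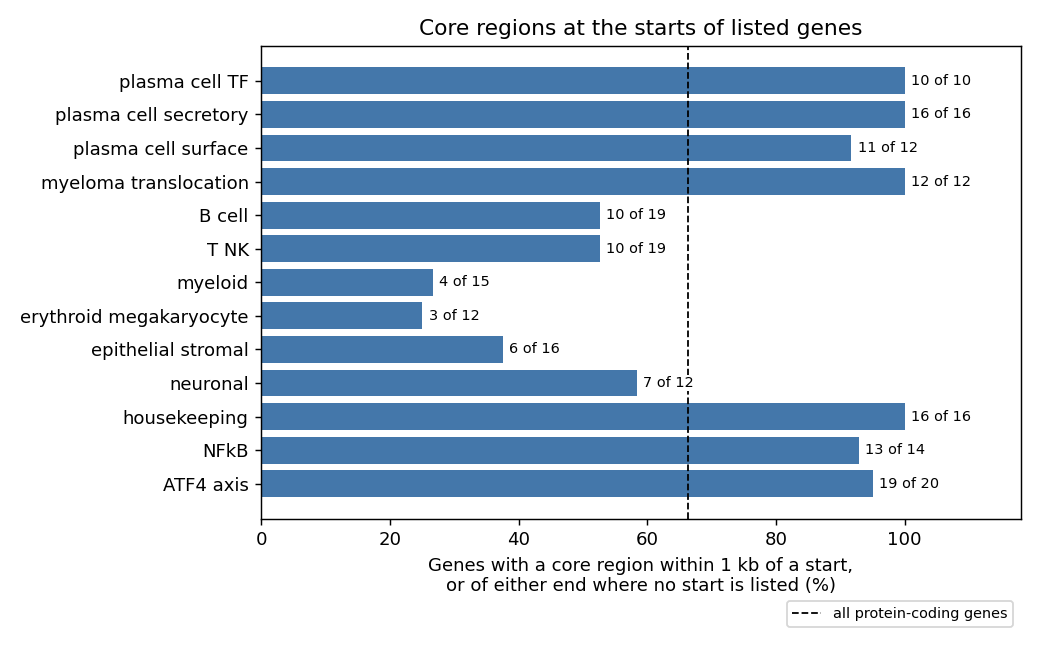
Share of the genes in each list with a core region within 1 kb of a start, or of either end where no start is listed (bars, from 0, in percent, with counts), beside the share of all protein-coding genes (dashed line, 66.3%). Plasma cell, translocation, NF-kB, ATF4 and housekeeping lists lie above the line, and the lists of other cell types below it.

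The strongest regions by fold lay mostly away from gene starts. The 20 with the highest mean fold ranged from 29.8 to 38.7. Their width of 519 to 998 bp, with a median of 722 bp, was close to the 712 bp of distal regions. Of these, 13 lay between genes, 5 in gene bodies and 2 at an end of a gene without a listed start. Distances here were taken to genes with an official symbol only. The nearest listed start, or end where no start was listed, was over 100 kb away for 10 of the 20, of which 6 lay between genes. Their local background had a median of 2.26 times that of the library, beside 2.05 over all core regions. The first lay on chromosome 2 (91659668 to 91660226), with 39.7, 39.9 and 36.5, and the nearest gene start was that of AQP7B, 2927 kb away. The second, also on chromosome 2 (89585324 to 89585842, 894 kb from RPIA), had 40.2, 38.4 and 37.1. Immunoglobulin V segments and other genes outside the protein-coding set do not count in these classes and distances, so a region called between genes may lie among them. Regions on chromosome 9 took 5 of the 20 places, among them 64369029 to 64369550, 916 kb from FOXD4L5, with 36.7, 35.6 and 34.2, and 66152990 to 66153539, 416 kb from FOXD4L4, with 34.7, 38.7 and 29.2. Another region of this chromosome (62801942 to 62802875) lay at an end of a gene without an official symbol, 1471 kb from CNTNAP3C, and had pileups of 623, 645 and 532. FOXD4L4, FOXD4L5 and CNTNAP3C belong to families of near-identical copies, as does DEFB103A, a defensin gene 4.28 kb from the fourth region (30.4, 37.3 and 36.2). Whether the other genes named with the strongest regions, AQP7B among them, have such copies was not examined. How reads with several matches were placed is not given in the sources used here.

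The other strongest regions included a region inside GARNL3, a GTPase-activating protein gene (chromosome 9, 127244922 to 127245653), with 32.9, 33.8 and 31.4 and pileups of 511, 513 and 484. Regions inside ITGA8, an integrin gene (29.9, 34.4 and 26.7), PPP3CA, the calcineurin catalytic subunit (30.4, 33.1 and 26.6), SCN2A, a sodium channel gene (30.2, 32.4 and 27.4) and CAMK2D, a calcium-dependent kinase gene (30.5, 30.4 and 28.5), were like it in fold. TMEM67, a gene of the ciliary transition zone, was the single named gene with a region of this rank at an end of the gene, with 29.9, 32.7 and 27.8. Regions between genes lay nearest to ALG1L2, FA2H, ZNG1F, IL20RA, SPRY1, FRG2C, ADAR and KLRF1. Library 2 had the highest value in 71.7% of all core regions and library 3 the lowest in 59.0%, and library 2 also had the lowest background and library 3 the highest. Each list lacks its first 6 to 8 rank numbers. Which measure these numbers rank was not checked, so whether peaks of higher fold are among those not analysed here is not known.

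Ranked by pileup, other regions led, and all 12 of the highest lay at listed gene starts. None of the 20 strongest by fold was among the 20 highest by pileup or by −log10 q. These 12 were singled out after their values were seen. The region of ZNF687 (chromosome 1, 151281139 to 151282757) had pileups of 1274, 1221 and 1278, about 400 times the library background, with a fold of 17.0, 17.1 and 15.3. The region shared by TRMT1L and SWT1 had 1284, 1193 and 1254, that of EDEM3, which trims mannose from misfolded proteins, 1179, 1261 and 1157, and that of METTL13 1143, 1124 and 1062. Of the 12, 10 lay on chromosome 1, between 144 and 185 Mb, including those of PRCC and HDGF, TOR3A, SHC1 and CKS1B, SUCO, FAM72C and FAM72D. The other two lay at TEDC1 on chromosome 14 and TYW1B on chromosome 7. FAM72C, FAM72D and TYW1B also belong to families of near-identical copies.

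Signal at gene starts was raised along that part of chromosome 1. The widest stretch of that chromosome without a gene-start region ran from 121.2 to 143.9 Mb. The 556 gene-start regions beyond it had a median relative pileup of 118.4, 133 and 109.6 in the 3 libraries. The 630 before it had 58.5, 67.5 and 55.9, and the 9620 on other chromosomes 68.9, 78.8 and 64.9. The local background was raised likewise, at 9.08 ± 0.39 times the library background against 4.28 ± 0.22 before the gap and 5.19 ± 0.25 on other chromosomes (SD, n = 3). The fold was 12.4 ± 0.63, against 13.6 ± 0.74 and 13.1 ± 0.68. The values beyond the gap did not overlap the others in pileup or local background. This split was made after the highest pileups were seen, and the number of copies of this arm was not measured here.

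The widest regions lay mostly at listed gene starts, or at ends of genes without one, and had a low fold. The 12 widest measured 3094 to 3530 bp. Of these, 10 lay at a listed start or at an end of a gene without one, and 2 in gene bodies. They had a mean fold of 4.67 to 11.6 and local backgrounds between 6.18 and 24.4 times the library's. The widest was at BCOR, a BCL6 corepressor gene (chromosome X, 40173892 to 40177421), with 3530 bp, a fold of 5.66, 7.40 and 6.12 and 7, 6 and 10 summits. RASA3, a Ras GTPase-activating protein gene, held a region of 3465 bp inside the gene, UBTF, a factor of ribosomal RNA transcription, 3414 bp, and TNK2, a tyrosine kinase gene, 3250 bp. TFEB, a regulator of lysosomal genes, had 3223 bp, L3MBTL3 3207 bp, the chromatin remodeller gene SMARCA2 3191 bp, IRF2, an interferon regulatory factor, 3152 bp, and PLXNC1 3094 bp. The set of widest regions depended on the libraries used. A width here is that of peaks merged over the libraries, and the part of merging in this was not tested. Without library 1, 6 of these 12 stayed among the 12 widest, without library 3, 8 did, and with bases covered in all 3 libraries, 7 did. Across all core regions, width and local background had a Spearman correlation of 0.456, and width and fold 0.322, over 59739 regions that share libraries and depth.

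The genes with the most core regions were long. GSE1, a chromatin-associated protein gene of 507 kb on chromosome 16, had 37 inside or within 10 kb, ARHGAP26, a GTPase-activating protein gene, 36, and ASAP1, an Arf GTPase-activating protein gene, 34. PDE4D, a cAMP phosphodiesterase gene, had 32, and GPHN, HIVEP3, PTPRD and RABGAP1L had 29 each. CNTNAP2, FOXP1, NAALADL2 and SHROOM3 had 28 each, ATXN1 27, and KIAA1217 and RAD51B 26 each. The density varied among these genes, from 1.20 regions per 100 kb of gene and flanks in CNTNAP2, which is 2304 kb long, to 8.26 in ASAP1. GSE1, ARHGAP26 and SHROOM3 had 7.03, 7.52 and 7.61. Their median fold was 7.11 in ATXN1 and 12.03 in GPHN, the lowest and the highest of the 15, beside 10.9 for all core regions. Of the 15 genes, NAALADL2 and RAD51B had no core region at a start. None of the 15 was among the 15 densest per 100 kb.

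The 3 libraries gave similar values for the same core region. Core regions were chosen for a peak in each library, which favours agreement. The 18744 merged regions found in only 1 or 2 libraries have no part in these figures. Across the 59739 core regions, which share depth within a library, Spearman correlations of fold were 0.911 between libraries 1 and 2, 0.919 between 1 and 3 and 0.905 between 2 and 3. With the fold scaled to the median of its library, the libraries of a pair differed more than 2-fold in 62 to 108 regions, or 0.104% to 0.181%. The highest summits lay a median of 8 bp apart in each pair, and 94.1% to 94.4% lay within 50 bp. After each library was divided by its median, the median coefficient of variation over the 3 libraries was 9.50%, with quartiles of 5.95% and 14.4%. It was 7.53% at gene starts and 10.3% in distal regions. The pileup, scaled likewise, had a median of 10.98%. The relative SD expected from counting, the inverse square root of the mean pileup, had a median of 10.9%. A median of SDs taken over 3 values lies below the SD expected, so these figures are not like for like. Whether the spread exceeds counting error was not tested. For the fold, the coefficient exceeded 30% in 838 regions (1.40%).

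Among the tenth of regions with the highest fold, those that varied most were inside genes. A region in ATP8A1, a phospholipid flippase gene (chromosome 4, 42568644 to 42568977), had 21.5, 34.0 and 13.3 with pileups of 89, 134 and 59. Regions in FHIT, a gene over a fragile site (16.0, 30.3 and 13.9), ZNF407 (25.1, 27.2 and 13.3) and MAPRE2, a microtubule end-binding protein gene (22.6, 24.0 and 12.2), followed, and library 3 was the lowest in all 4. Those that varied least were in NSMAF (23.8, 27.3 and 22.5), at the starts of PPP1R12C, a myosin phosphatase subunit gene (19.4, 22.3 and 18.5), and DHX57, a helicase gene (24.5, 27.9 and 23.1), and near TMEM135 (20.3, 23.2 and 19.2). In these 4, library 2 was the highest and library 3 the lowest, in nearly the proportions of the library medians.

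**Figure D5:**
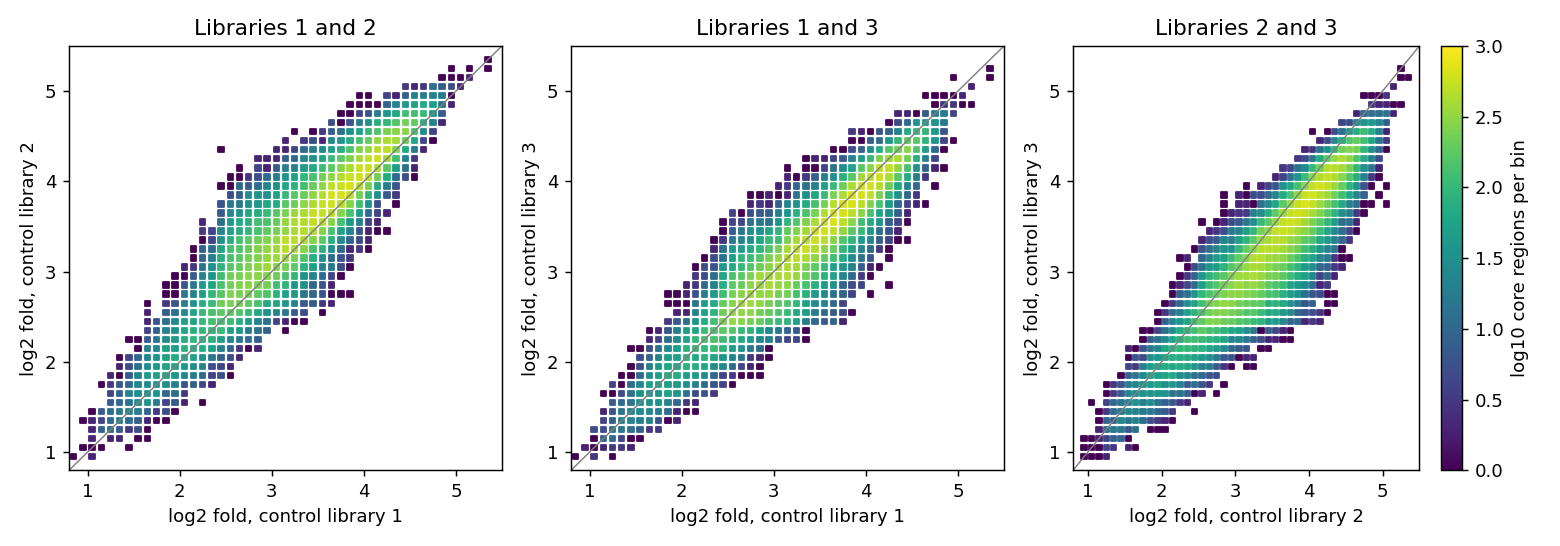
Log2 fold of core regions in each pair of control libraries, with colour for the number of regions per bin on a log10 scale and the line of equal values in grey. Regions lie along the line, with Spearman correlations of 0.911, 0.919 and 0.905, and library 2 lies above libraries 1 and 3 on the whole.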

How the data were processed

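Peak lists of 3 control libraries were used. MACS2 called the peaks of each library against hg38, which is stated per the submitters' processing notes. Not given in the sources used here are its version and settings, the aligner, read filters and any transposase shift. The deposited score is 10 times the −log10 p, up to 1000, and was used only to check columns. The deposited fold is a ratio of summit pileup to local background, each with 1 added. The deposited −log10 p and −log10 q come from the caller's test within a library. These values describe, rank and filter peaks, and are the authors'. In each library a region took the highest fold, the highest −log10 q and the highest pileup among its summits, each on its own. Its local background and summit position were those of the summit of highest fold. Pileup and local background were recovered as the whole number whose Poisson p matched within 0.01 on the −log10 scale, for 100% of summits.

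Each list skips 923 to 976 rank numbers, and what they held is not analysed here. Only chromosomes 1 to 22 and X were kept, which dropped 11 to 16 summits per list. Peaks that overlapped by 1 bp were joined. Genes and starts came from RefSeq on GRCh38.p14. Of 19970 genes, 15812 had a listed start, and for the other 4158 either end was used. All 193 entries of 13 gene lists were matched. The members and lists were chosen with earlier results of these data known.

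Named were the 5 markers, the 20 regions of highest fold, the 12 widest, the 15 genes with most regions, up to 4 members of each list with the highest fold and 4 with no core region within 10 kb, and the 4 most and 4 least variable regions among the 10% of highest fold. Genes lacking an official symbol were passed over, and some listed genes are not reported here. Alternatives were other q thresholds, start windows, summit rules and libraries left out. Scripts (Python 3.11.15, pandas 2.3.3, numpy 2.4.6, scipy 1.17.1) were tested on simulated data.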

Additional observations from a re-analysis of the deposited data

How the results depend on the processing

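The number of core regions stayed within 1.5 times its value of 59739 under every alternative run, 46567 with the −log10 q threshold raised to 20 and 71808 with it lowered to 5, and from 61157 to 63854 with a library left out. The share of core regions at a listed start or at an end of a gene without one, 21.99%, was 20.7% with a window of 0.5 kb, 24.3% with 2 kb, 19.1% at a −log10 q of at least 5, 26.6% at 20, and 21.0% to 21.7% with a library left out. The share of genes with a core region at the start, 66.3%, was 64.4%, 68.7%, 67.6% and 64.1% under the same settings, and 66.4% to 66.6% with a library left out. The log2 difference in fold between starts and distal regions became −0.11 with the mean over summits. It was 0.36 to 0.41 with a library left out, a check chosen after seeing the data. The median coefficient of variation was 11.9% for the fold as deposited, 10.98% for the pileup, and 7.04% to 8.44% over 2 libraries, where fewer values give a lower spread. Of the 20 strongest regions 0 stayed when ranked by mean −log10 q or by pileup, and 17 stayed without any 1 library. Of the 12 widest, 7 stayed by bases covered in all libraries and 6 to 11 with a library left out. Of the 15 genes with most regions, 0 stayed per 100 kb of length and 13 to 14 with a library left out. List counts stayed within 1.5 times in 71 of 78 cases, and the exceptions were the wider 10 kb window for 6 lists and the myeloid list at a −log10 q of at least 20. No paired analysis was possible because a single group of samples was used. The lists give no read totals, so whether depth limited which weak regions are listed was not tested.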

Other observations

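Genes outside the protein-coding set were open to very different degrees. A core region lay within 1 kb of either end of 294 of 443 tRNA genes (66.4%), close to the 66.2% of protein-coding genes by the same measure. The share was 32.5% of 154 snRNA genes, 30.2% of 248 immunoglobulin and T cell receptor V segments, 29.1% of 18177 lncRNA genes, 18.1% of 1911 miRNA genes, 9.87% of 1196 snoRNA genes and 6.002% of 15212 pseudogenes. Many small RNA genes lie inside or beside other genes, and tRNA genes are close together, so a region can be counted for several genes.

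Chromosomes differed in core regions per protein-coding gene, from 1.51 on chromosome 19 to 4.87 on chromosome 18 and 4.69 on chromosome 4. The median local background was lowest on chromosome 13, at 1.23 times that of the library, and highest on chromosome 19, at 3.40 times. The 10 densest genes by regions per 100 kb of gene and flanks were short, from 1.84 to 9.25 kb. Of these, 4 lie close together on chromosome 16, among them FBXL8 at 33.03, NOL3 at 31.7 and HSF4 at 30.6, so that their 10 kb flanks overlap. The others lie on other chromosomes, such as RAB24 at 31.1 and ISCU at 28.7. These were singled out after their values were seen.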
